A study of Mus musculus with 6 samples.

Results

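The 41 genes described here carry out glucose uptake, glycolysis, lactate handling and glycogen metabolism, and they were measured by RNA-seq in ischemic gastrocnemius muscle of *Gpr174*-/Y and wild-type (WT) mice. They were taken by name, as a list of transporters, enzymes and their regulators, out of 18089 genes in the deposited table. The rule used no measured value, but the list was chosen with earlier results of these data known. All 41 were listed there, and all 41 passed the filter on low counts. The members were sorted by the known use of each isozyme into a muscle class of 12 genes, a non-muscle class of 15 genes and a shared class of 14 genes.

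Each group held 3 libraries, numbered as replicates 1 to 3, from male C57BL/6 mice aged 8 to 10 weeks whose left femoral artery had been ligated and cut out, a procedure called hindlimb ischemia (HLI). Muscle was taken on day 7 after HLI in both groups. The labels name no agent for either group, and the labels differ between groups by genotype alone. Neither the labels nor the methods give a batch or a tissue yield. *Gpr174* is an X-linked gene for a receptor of immune cells, and the hemizygous males are labelled as knockouts, with no promoter or Cre line named. Muscle without ischemia was not analysed here, so the values compare genotypes within ischemic tissue. The labels do not say that each library came from a separate mouse, and p-values measure the spread between these libraries.

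Glycolysis splits glucose into pyruvate with a gain of ATP, and in a muscle that runs short of oxygen the pyruvate is turned into lactate. Several steps have more than 1 gene: a form kept in mature muscle fibres, and forms used by regenerating cells, leukocytes and most other tissues. Muscle also stores glucose as glycogen, which phosphorylase opens when a fibre contracts and glycogen synthase refills.

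Total counts were between 18417107 and 18695036 in the WT libraries and between 19173051 and 19394505 in the *Gpr174*-/Y libraries. The deleted gene, *Gpr174*, was scarce, with counts of 8, 2 and 5 in the WT libraries by replicate number and 1, 0 and 0 in the knockout libraries. The markers of mature fast fibres were all detected in every group and made up between 16.0% and 20.9% of counts in WT and between 8.49% and 9.10% in *Gpr174*-/Y muscle. The WT libraries were spread more widely than the *Gpr174*-/Y ones. WT replicate 2 lay between replicates 1 and 3 for 40 of the 41 members, against 71.7% of all genes tested, and WT replicate 3 was the WT library nearest the *Gpr174*-/Y mean for 39 members, the exceptions being *Pfkfb3* and *Eno1*. The nearest WT library was not counted over all genes. The highest WT value exceeded the lowest by a median of 1.56-fold over the members and 1.95-fold over the muscle class, against 1.09-fold for both within the *Gpr174*-/Y group. Over all genes tested these medians were 1.19-fold in WT and 1.10-fold in the *Gpr174*-/Y group. Values are therefore given for each library, in the order of replicates 1, 2 and 3.

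The muscle class fell as a whole in *Gpr174*-/Y muscle, the shared class fell nearly as a whole, and most of the non-muscle class rose. With the counts scaled by the TMM method of edgeR, its quasi-likelihood test placed 26 of 41 members lower and 10 higher at an adjusted p of 0.05, where 27.6% of all 14395 genes tested were lower and 27.0% higher. The muscle class had 12 of 12 members lower and a median log2 fold change (*Gpr174*-/Y over WT) of -1.18. The non-muscle class had 10 of 15 higher, 1 lower (*Pfkfb4*) and a median of 0.34. The shared class had 13 of 14 lower and a median of -0.97, and the median over all genes tested was 0.00. With an absolute log2 fold change above 1 required as well, 13 members were called against 8.28% of all genes, 12 of them lower (4.84% of all genes) and *Hk3* higher (3.45%). On TMM-scaled counts the libraries of the 2 genotypes did not overlap for 36 of the 41 members, against 65.6% of all genes. The 5 that overlapped were *Slc2a3*, *Hk1*, *Pfkfb3*, *Slc16a1* and *Phkg2*, which were also the 5 members that did not pass the test. The overlap depended on the scale. On TPM, an abundance scaled for length and not by TMM, these 5 were higher in each *Gpr174*-/Y library than in each WT library. *Phkg2*, for one, had 25.0, 23.7 and 25.6 TPM in WT and 31.6, 31.4 and 33.8 TPM in *Gpr174*-/Y muscle. *Gpi1*, *Slc16a3*, *Fbp2*, *Phka1* and *Phkb* overlapped on TPM instead.

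**Figure D1:**
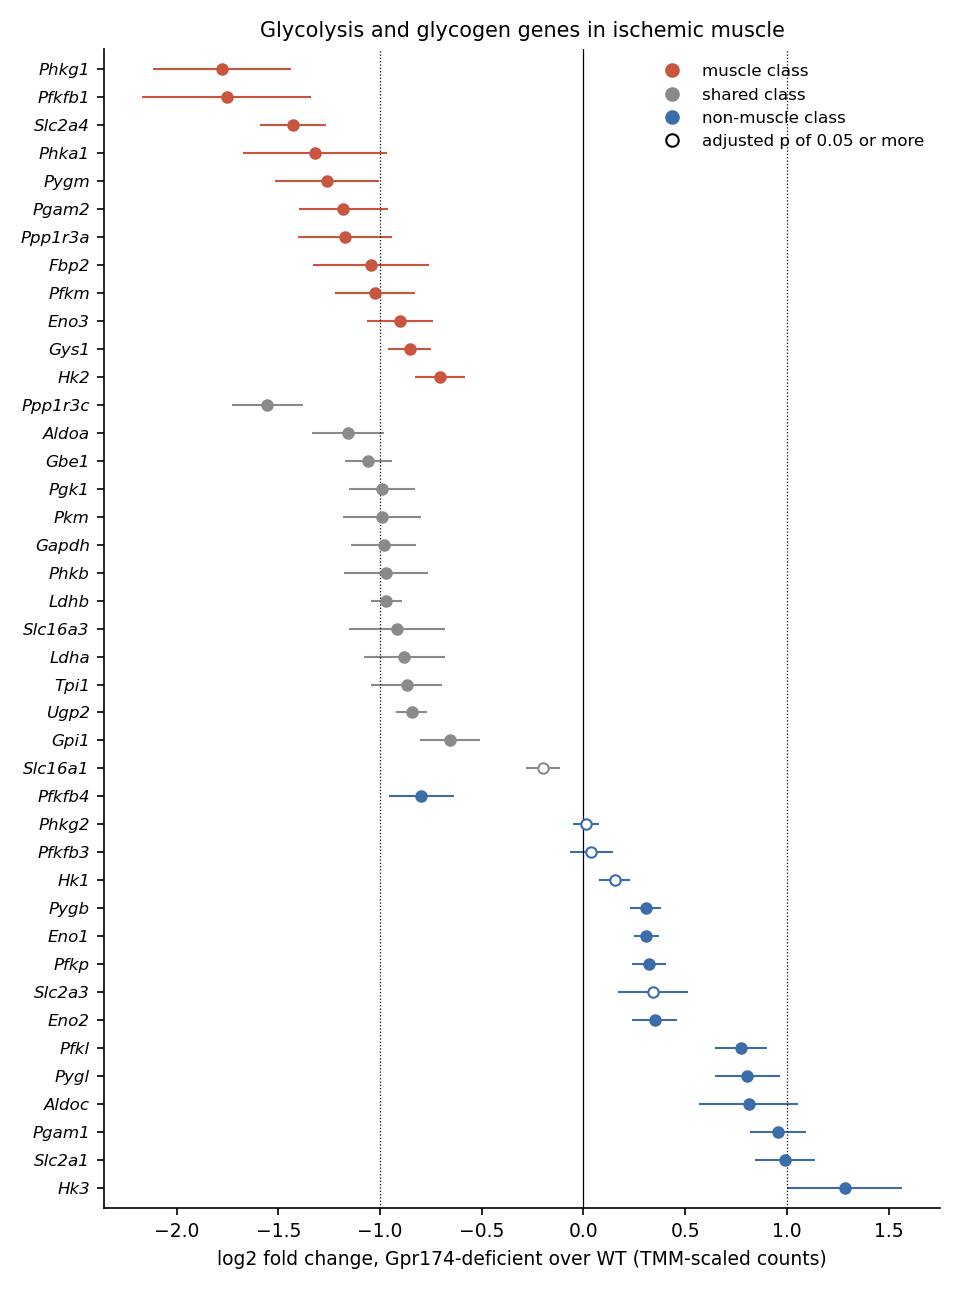
Log2 fold change of each of the 41 members, *Gpr174*-/Y over WT on TMM-scaled counts, on the horizontal axis, with bars of 1 standard error and n = 3 libraries a group. Genes are ordered within the muscle (red), shared (grey) and non-muscle (blue) classes, open points have an adjusted p of 0.05 or more, and dotted lines mark an absolute log2 fold change of 1. The 12 red points lie between -1.77 and -0.71, and *Pfkfb4* is the blue point on the lower side.

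The number past both thresholds depended on single WT libraries, since 4 members were lower by this rule without WT replicate 1 and 21 without WT replicate 3. The calls over all genes moved as well. At the adjusted p alone, 48.9% of all genes passed without WT replicate 1 and 62.8% without WT replicate 3, against 54.6% with every library. The share of all genes past both thresholds was not counted in these fits. The median of the muscle class was -0.92 without WT replicate 1 and -1.39 without WT replicate 3. Scaling by total counts instead of TMM moved the median of all genes by 0.27, and the class medians then were -0.89, 0.61 and -0.69 for the muscle, non-muscle and shared classes. By that scaling 64.7% of all genes passed the test, 50.7% higher and 13.96% lower. The non-muscle class then had 14 of 15 members higher and the muscle class 12 of 12 lower, and 5 members were lower and 6 higher past both thresholds. The share of all genes past both thresholds was not counted by that scaling either.

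Uptake is the first step. Glucose enters the mature fibre through the insulin-responsive transporter GLUT4, the product of *Slc2a4*, and enters most other cells through GLUT1 (*Slc2a1*) and GLUT3 (*Slc2a3*). *Slc2a4* stood at 314, 266 and 198 CPM (counts scaled by TMM to a common library size) in WT and at 92.1, 93.9 and 103 CPM in *Gpr174*-/Y muscle. Each *Gpr174*-/Y library was below each WT library, and *Slc2a4* was 2.69-fold lower (log2 fold change -1.43, standard error 0.16, adjusted p = 0.00117, edgeR). *Slc2a1* ran the other way, with 11.3, 14.2 and 16.9 CPM in WT and 25.5, 27.4 and 31.5 CPM in *Gpr174*-/Y muscle. It was 1.99-fold higher (log2 fold change 0.99, standard error 0.15, adjusted p = 0.00225, edgeR), with no overlap between groups. *Slc2a3* was scarce, at 2.80, 3.45 and 3.93 CPM in WT and 3.82, 4.003 and 5.12 CPM in *Gpr174*-/Y muscle, and it did not pass the test (adjusted p = 0.137, edgeR). Within a library the ratio of *Slc2a4* to *Slc2a1*, taken on TPM, the transcript abundance scaled for length, does not depend on library scaling. It was 28.3, 19.0 and 11.9 in WT and 3.66, 3.50 and 3.36 in *Gpr174*-/Y muscle, the largest change among the 17 isozyme ratios computed.

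Hexokinase traps glucose in the cell as glucose 6-phosphate. *Hk2* is the insulin-regulated form of muscle, *Hk1* is widespread, and *Hk3* is a form of myeloid leukocytes. *Hk2* had 148, 125 and 103 CPM in WT and 75.5, 75.1 and 80.0 CPM in *Gpr174*-/Y muscle, the smallest fall in the muscle class (log2 fold change -0.71, standard error 0.12, adjusted p = 0.00395, edgeR). *Hk1* had 66.9, 74.4 and 81.4 CPM in WT and 80.8, 83.4 and 83.6 CPM in *Gpr174*-/Y muscle. The groups overlapped at WT replicate 3, the log2 fold change was 0.15 (adjusted p = 0.124, edgeR), and without WT replicate 3 it was 0.23 and passed (adjusted p = 0.0093). *Hk3* rose most of all members, from 5.16, 8.99 and 13.5 CPM in WT to 21.0, 22.5 and 24.2 CPM in *Gpr174*-/Y muscle, a 2.43-fold difference (log2 fold change 1.28, standard error 0.28, adjusted p = 0.0085, edgeR). On TPM the order of *Hk2* and *Hk1* differed between libraries, also within WT. *Hk2* exceeded *Hk1* in WT replicates 1 and 2, with ratios of 1.57 and 1.19, and was below it in WT replicate 3 (0.896) and in all *Gpr174*-/Y libraries (0.666, 0.640 and 0.679). *Hk2* was 15.2, 7.78 and 4.36 times *Hk3* in WT and 2.02, 1.91 and 1.93 times *Hk3* in *Gpr174*-/Y muscle.

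*Gpi1*, which turns glucose 6-phosphate into fructose 6-phosphate, was 1.58-fold lower (log2 fold change -0.66, adjusted p = 0.00952, edgeR). Phosphofructokinase makes the next and committing step of glycolysis, with a muscle subunit (*Pfkm*), a liver subunit (*Pfkl*) and a platelet subunit (*Pfkp*). *Pfkm* had 2348, 1925 and 1333 CPM in WT and 954, 914 and 886 CPM in *Gpr174*-/Y muscle, a log2 fold change of -1.02 (standard error 0.20, adjusted p = 0.00536, edgeR). *Pfkl* rose from 17.9, 21.1 and 25.2 CPM to 33.5, 36.7 and 39.7 CPM (log2 fold change 0.77, adjusted p = 0.00315), with no overlap between groups. *Pfkp* differed less, at 28.2, 32.5 and 35.5 CPM in WT and 39.2, 40.8 and 40.5 CPM in *Gpr174*-/Y muscle (0.32, adjusted p = 0.0167), and it missed the threshold without WT replicate 2 (0.0535), *Gpr174*-/Y replicate 2 (0.0619) or *Gpr174*-/Y replicate 3 (0.0523). Despite these shifts *Pfkm* remained the abundant subunit on TPM, at 174, 121 and 69.6 times *Pfkl* in WT and 37.8, 33.1 and 29.8 times in *Gpr174*-/Y muscle.

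The bifunctional enzymes of the *Pfkfb* family make and break fructose 2,6-bisphosphate, the main activator of phosphofructokinase. *Pfkfb1*, the form of liver and muscle, fell from 19.6, 12.9 and 5.84 CPM to 3.49, 3.72 and 4.09 CPM (log2 fold change -1.75, standard error 0.42, adjusted p = 0.0114, edgeR). WT replicate 1 was 3.35 times WT replicate 3, and still the groups did not overlap. *Pfkfb4* was the exception in the non-muscle class, with 44.4, 36.8 and 27.5 CPM in WT and 20.9, 20.8 and 20.7 CPM in *Gpr174*-/Y muscle (log2 fold change -0.80, adjusted p = 0.00622). *Pfkfb3*, a hypoxia-inducible form, had 48.6, 44.0 and 40.8 CPM in WT and 40.2, 45.0 and 51.7 CPM in *Gpr174*-/Y muscle. The groups overlapped (log2 fold change 0.04, adjusted p = 0.781), and the sign turned without WT replicate 3 (-0.01) or *Gpr174*-/Y replicate 3 (-0.06). *Fbp2*, the muscle fructose bisphosphatase, which runs the step in reverse, had 14.4, 9.64 and 6.29 CPM in WT and 5.02, 5.18 and 4.42 CPM in *Gpr174*-/Y muscle (log2 fold change -1.05, adjusted p = 0.0195). It lost the call without WT replicate 2 (adjusted p = 0.0528) and without each *Gpr174*-/Y library in turn (0.0579, 0.0531 and 0.071).

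**Figure D2:**
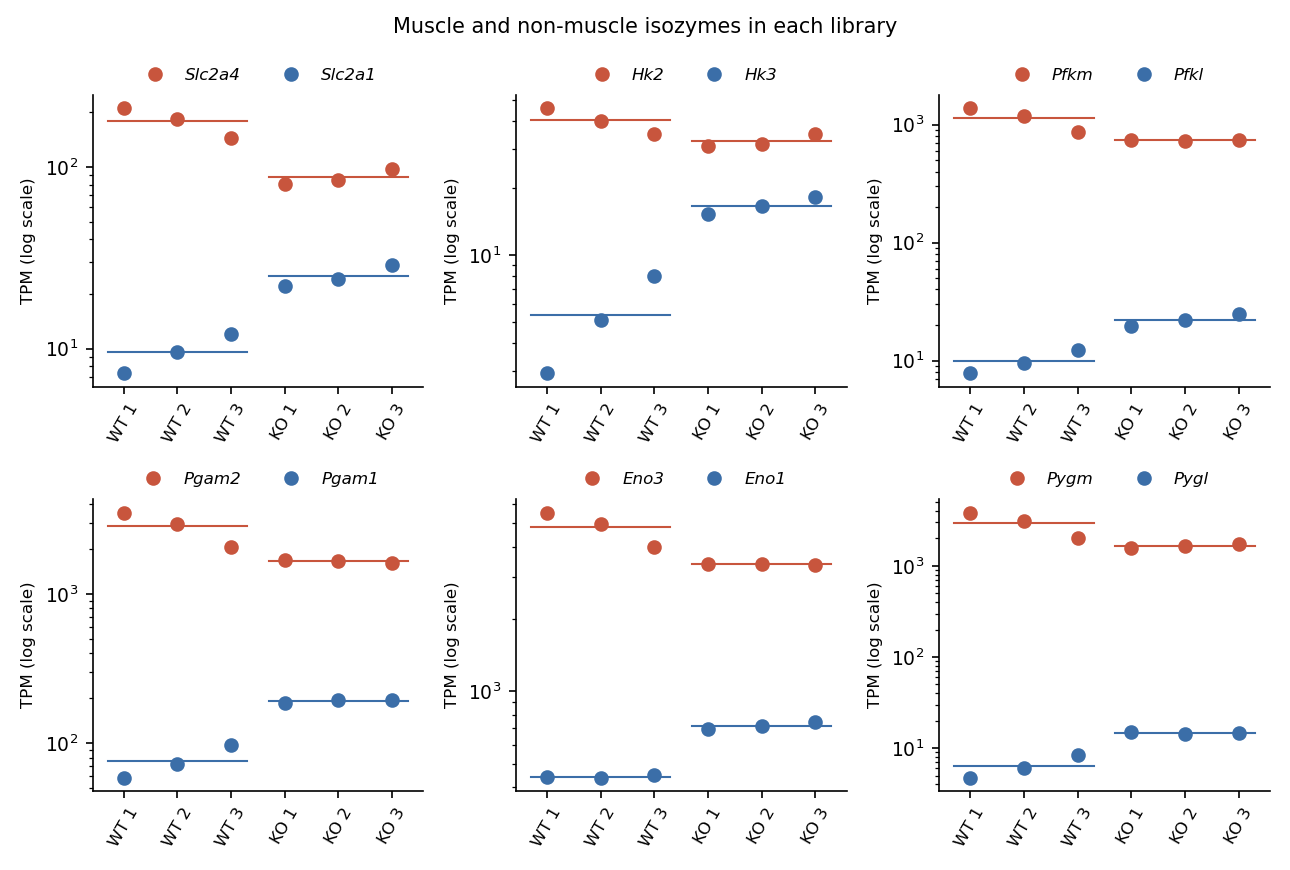
TPM on a log axis of the muscle form (red) and a non-muscle form (blue) at 6 steps, in the 3 WT and 3 *Gpr174*-/Y libraries (labelled KO), with each group's mean as a line. In each panel the red points are lower and the blue points higher in the *Gpr174*-/Y libraries, and the muscle form stays the more abundant, as with *Pygm* between 1570 and 1754 TPM and *Pygl* between 14.4 and 15.1 TPM in *Gpr174*-/Y muscle.

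The middle of glycolysis was carried by very abundant shared enzymes. *Gapdh*, the glyceraldehyde phosphate dehydrogenase, made up 35.4% of the members' TPM in WT and 35.7% in *Gpr174*-/Y muscle, and *Aldoa*, the main aldolase of muscle, 24.2% and 21.6%. *Gapdh* fell from 17349, 15140 and 12167 CPM to 7774, 7549 and 7274 CPM (log2 fold change -0.98, standard error 0.16, adjusted p = 0.00297, edgeR). *Aldoa* fell from 13233, 11256 and 8504 CPM to 5060, 4954 and 4790 CPM (-1.16, standard error 0.18, adjusted p = 0.00243). *Aldoc*, the scarce brain form of aldolase, had between 9 and 32 counts in a library. *Aldoc* had 0.560, 0.714 and 0.955 CPM in WT and 1.10, 1.51 and 1.35 CPM in *Gpr174*-/Y muscle (log2 fold change 0.81, adjusted p = 0.0275), and it missed the threshold without WT replicate 1 (0.0705), WT replicate 2 (0.0949), *Gpr174*-/Y replicate 2 (0.104) or *Gpr174*-/Y replicate 3 (0.0693) and by the DESeq2 Wald test (0.0995). Triose phosphate isomerase (*Tpi1*, -0.87) and phosphoglycerate kinase (*Pgk1*, -0.99) fell as well. *Gapdh* and *Aldoa* have near-identical copies elsewhere in the genome, and how reads were divided between copies is not given in the sources used here. *Gapdh* is often used to scale other genes, and here it differed 1.98-fold between genotypes.

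Phosphoglycerate mutase has a pair of forms that moved in opposite directions. *Pgam2* is the muscle form and *Pgam1* the form of most other tissues. *Pgam2* had 1842, 1488 and 978 CPM in WT and 667, 636 and 598 CPM in *Gpr174*-/Y muscle (log2 fold change -1.18, standard error 0.22, adjusted p = 0.0046, edgeR). *Pgam1* had 64.3, 75.6 and 96.5 CPM in WT and 153, 154 and 151 CPM in *Gpr174*-/Y muscle, so it was 1.94-fold higher (0.95, standard error 0.14, adjusted p = 0.00203). On TPM *Pgam2* was 59.5, 40.9 and 21.1 times *Pgam1* in WT and 9.05, 8.56 and 8.25 times in *Gpr174*-/Y muscle. Put as a share, *Pgam2* gave 98.3%, 97.6% and 95.5% of the pair's TPM in WT and 90.1%, 89.5% and 89.2% in *Gpr174*-/Y muscle. Enolase followed the same order. *Eno3*, the muscle form, fell from 4986, 4275 and 3267 CPM to 2320, 2249 and 2135 CPM (-0.90, adjusted p = 0.00426), while *Eno1*, the widespread form, had 466, 447 and 430 CPM in WT and 556, 555 and 553 CPM in *Gpr174*-/Y muscle (0.31, adjusted p = 0.00673). On TPM, which is not TMM-scaled, *Eno1* stood at 439, 437 and 446 in WT and at 697, 715 and 742 in *Gpr174*-/Y muscle, a wider gap than on counts. *Eno2*, the form of neurons, was scarce, with between 5.91 and 9.09 CPM, and rose by 0.35 on the log2 scale (adjusted p = 0.0318). It missed the threshold without WT replicate 1 (0.067), WT replicate 2 (0.0898), *Gpr174*-/Y replicate 1 (0.0826) or *Gpr174*-/Y replicate 2 (0.121), by the DESeq2 Wald test (0.0811) and with the replicate number as a block (0.074).

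The promoters of forms that moved in opposite directions are shown with the motifs read by myogenic factors and by hypoxia-inducible factor that they hold. Each sequence is the 250 bases before the RefSeq transcription start on GRCm38.p6, read 5′ to 3′ along the gene's own strand, which is the build of the reference and not the one named for the count table. Capitals mark CAGCTG (an E-box that reads the same on both strands), the binding motif of MEF2, ACGTG and GCGTG (2 forms of the hypoxia response core), each searched on both strands.
*Pgam2*, chr11:5803797-5804046, minus strand: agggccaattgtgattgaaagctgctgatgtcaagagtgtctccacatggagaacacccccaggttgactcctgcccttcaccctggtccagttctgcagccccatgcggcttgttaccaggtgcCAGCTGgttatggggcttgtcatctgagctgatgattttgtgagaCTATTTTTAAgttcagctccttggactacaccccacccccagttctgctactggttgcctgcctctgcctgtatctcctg
*Pgam1*, chr19:41911621-41911870, plus strand: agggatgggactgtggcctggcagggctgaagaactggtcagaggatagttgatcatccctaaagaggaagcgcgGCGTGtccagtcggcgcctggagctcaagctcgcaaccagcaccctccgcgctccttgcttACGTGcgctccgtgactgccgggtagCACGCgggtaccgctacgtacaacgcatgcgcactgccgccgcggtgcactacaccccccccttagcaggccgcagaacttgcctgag
*Pygm*, chr19:6384158-6384407, plus strand: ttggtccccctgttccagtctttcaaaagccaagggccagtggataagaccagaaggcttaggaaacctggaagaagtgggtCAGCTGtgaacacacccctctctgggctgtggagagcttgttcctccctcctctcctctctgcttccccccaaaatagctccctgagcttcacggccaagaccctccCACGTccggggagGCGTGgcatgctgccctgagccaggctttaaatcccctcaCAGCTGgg
*Pygl*, chr12:70227684-70227933, minus strand: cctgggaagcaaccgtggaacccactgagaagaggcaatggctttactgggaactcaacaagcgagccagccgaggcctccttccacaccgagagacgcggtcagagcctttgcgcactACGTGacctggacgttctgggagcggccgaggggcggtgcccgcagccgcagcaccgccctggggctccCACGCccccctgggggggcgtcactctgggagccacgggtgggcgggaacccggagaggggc

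The *Pgam2* window held 1 CAGCTG and 1 MEF2 motif, starting 125 and 80 bases before the transcription start, and neither hypoxia core. The *Pgam1* window held 1 ACGTG and 2 GCGTG and no CAGCTG or MEF2 motif. In the *Pygm* window CAGCTG stood at 168 and 8 bases before the start, beside 1 ACGTG and 1 GCGTG, and the *Pygl* window held 1 of each hypoxia core. Over the 39 members with a RefSeq window, CAGCTG was found for 7 of 11 muscle genes (*Pfkfb1*, *Pgam2*, *Fbp2*, *Pygm*, *Gys1*, *Phka1* and *Ppp1r3a*), 0 of 14 non-muscle genes and 4 of 14 shared genes, against 14.7% of all 27025 genes with windows. The MEF2 motif was found for 3 muscle genes (*Pfkfb1*, *Pgam2* and *Ppp1r3a*) and for 0 genes of the other classes, against 3.42%. ACGTG was found for 4 of 11 muscle, 6 of 14 non-muscle and 8 of 14 shared genes, against 18.5%. GCGTG was found for 5 of 11, 11 of 14 and 7 of 14 genes, against 30.9%. TATAAA was found for 2, 1 and 0 genes of the muscle, non-muscle and shared classes and GGGCGG for 4, 8 and 10, against 14.3% and 35.4%. A gene was counted if any of its windows held the motif. The 39 members had 55 windows and all 27025 genes had 32851, so windows per gene were more numerous for the members. GCGTG and GGGCGG can share bases, and a match in these windows is a description of the letters, not of a bound factor.

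Pyruvate kinase ends glycolysis, and *Pkm* makes the M1 and M2 splice forms, which are typical of mature muscle and of growing cells. *Pkm* as a gene had 3823, 3172 and 2230 CPM in WT and 1578, 1551 and 1516 CPM in *Gpr174*-/Y muscle (log2 fold change -0.99, standard error 0.19, adjusted p = 0.00545, edgeR). Its listed transcripts did not move together. NM_001253883.1 gave 85.3%, 81.6% and 76.5% of the gene's TPM in WT and 62.1%, 63.2% and 62.5% in *Gpr174*-/Y muscle, while XM_006510856.2 gave 13.4%, 17.3% and 22.4% in WT and 36.8%, 36.1% and 36.6% in *Gpr174*-/Y muscle. The level of the first was 2273, 1888 and 1330 TPM in WT and 941, 966 and 971 TPM in *Gpr174*-/Y muscle. The level of XM_006510856.2 was 357, 401 and 390 TPM in WT and 557, 551 and 569 TPM in *Gpr174*-/Y muscle. Neither comparison overlapped between groups, and each had the smallest p that 3 libraries against 3 allow (2-sided exact permutation test, p = 0.1, adjusted p = 0.279 over 53 transcripts). The transcripts are named by their RefSeq identifiers, and which splice form each encodes was not tested.

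Compared were 53 transcripts in 23 members that had at least 2 listed transcripts with a mean share of at least 10% each. No count limit was set for a transcript, and some had 0 counts in several libraries. The share differed without overlap for 19, and by at least 10 percentage points as well for 13 transcripts of 9 genes. By the same rules 24.9% of 17283 transcripts of all genes differed without overlap, and 17.6% by at least 10 points as well. *Eno1* showed the sharpest division among abundant genes. NM_023119.2 rose from 66.9, 85.1 and 133 TPM in WT to 347, 344 and 365 TPM in *Gpr174*-/Y muscle, 3.71-fold, and its share of the gene from 15.3%, 19.5% and 29.8% to 49.8%, 48.1% and 49.2%. XM_017319953.2 had 371, 350 and 313 TPM in WT and 348, 371 and 377 TPM in *Gpr174*-/Y muscle, which overlapped between groups (exact permutation p = 0.4). *Phka1*, the regulatory subunit of muscle phosphorylase kinase, had 40.7%, 24.0% and 12.1% of its TPM in NM_008832.2 in WT and 6.09%, 0% and 3.75% in *Gpr174*-/Y muscle. *Phkg1* drew 25.8%, 25.3% and 20.5% of its TPM from XM_011240871.3 in WT and 36.7%, 34.8% and 36.9% in *Gpr174*-/Y muscle, and the rest from NM_011079.3. XM_006532654.2 of *Slc2a4* fell from 34.3%, 35.5% and 32.0% to 16.5%, 19.3% and 22.4% of that gene, and XM_017315954.2 of *Pfkfb3* from 61.0%, 61.7% and 59.5% to 33.7%, 42.7% and 49.9%. The remaining 4 belonged to genes of low count, NM_001206390.1 and NM_001206391.1 of *Hk3*, NM_011401.4 of *Slc2a3* and XM_006505504.3 of *Eno2*, where at most 247 counts of a library fell on the transcript. Reads that fit several transcripts are divided by an estimate, so shares within a gene are less certain than its sum, and TPM of single transcripts follow the total-count scale, which stood 0.27 above TMM on the log2 scale.

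**Figure D3:**
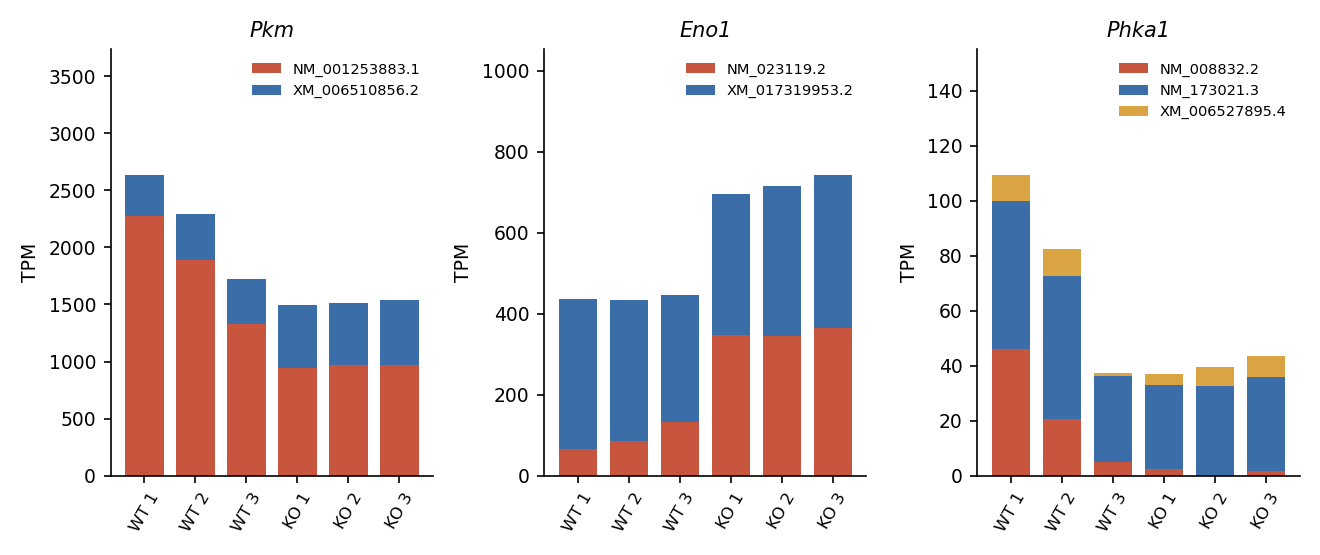
TPM of the compared transcripts of *Pkm*, *Eno1* and *Phka1*, stacked in each of the 3 WT and 3 *Gpr174*-/Y libraries (labelled KO). The red part of *Pkm* (NM_001253883.1) is between 1330 and 2273 TPM in WT and between 941 and 971 TPM in *Gpr174*-/Y muscle, and the red part of *Eno1* (NM_023119.2) is between 66.9 and 133 TPM in WT and between 344 and 365 TPM in *Gpr174*-/Y muscle.

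Lactate dehydrogenase converts pyruvate and lactate, with *Ldha* as the form of fast fibres and *Ldhb* as that of heart and oxidative fibres. Both fell. *Ldha* had 3055, 2516 and 1725 CPM in WT and 1375, 1323 and 1266 CPM in *Gpr174*-/Y muscle (log2 fold change -0.88, standard error 0.20, adjusted p = 0.00993, edgeR). *Ldhb* had 90.4, 83.4 and 74.2 CPM in WT and 42.1, 43.1 and 41.4 CPM in *Gpr174*-/Y muscle (-0.97, standard error 0.08, adjusted p = 0.00062), the lowest p of the members. Their ratio on TPM was 26.8, 23.9 and 18.5 in WT and 25.8, 24.4 and 24.4 in *Gpr174*-/Y muscle, which overlapped (difference of the log2 ratio 0.13, exact permutation p = 0.7, and -0.03 without WT replicate 3). Of the lactate carriers, *Slc16a3* (MCT4), the exporter of glycolytic fibres, fell from 271, 210 and 136 CPM to 120, 110 and 97.3 CPM (-0.92, adjusted p = 0.015, and 0.0613 without *Gpr174*-/Y replicate 3). *Slc16a1* (MCT1) had 47.4, 45.1 and 38.5 CPM in WT and 36.4, 37.7 and 39.96 CPM in *Gpr174*-/Y muscle, with overlap at WT replicate 3 (-0.20, adjusted p = 0.0871). Its sign depended on the scaling, at 0.08 with total counts, and without WT replicate 3 it was -0.27 and passed (adjusted p = 0.00545).

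Glycogen breakdown begins with phosphorylase, of which *Pygm* is the muscle form, *Pygb* the brain form and *Pygl* the liver form. *Pygm* had 6644, 5168 and 3144 CPM in WT and 2040, 2063 and 2133 CPM in *Gpr174*-/Y muscle (log2 fold change -1.26, standard error 0.26, adjusted p = 0.00641, edgeR). *Pygl* rose from 8.09, 9.94 and 13.04 CPM to 19.3, 17.8 and 17.4 CPM (0.81, adjusted p = 0.00574). *Pygb* rose from 32.8, 37.5 and 40.1 CPM to 44.8, 46.8 and 44.9 CPM (0.31, adjusted p = 0.0152), and without *Gpr174*-/Y replicate 2 it missed the threshold (0.0622). Neither group overlapped the other for any of these genes. *Pygm* on TPM was 790, 502 and 234 times *Pygl* in WT and 103, 113 and 120 times in *Gpr174*-/Y muscle.

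Phosphorylase kinase switches phosphorylase on, and its catalytic muscle subunit fell furthest of all members. Its lead over *Pfkfb1* (log2 fold change -1.75, standard error 0.42) was far smaller than either standard error. The catalytic subunit *Phkg1* had 271, 195 and 96.1 CPM in WT and 54.7, 55.0 and 54.6 CPM in *Gpr174*-/Y muscle, 3.42-fold lower (log2 fold change -1.77, standard error 0.34, adjusted p = 0.00522, edgeR). *Phka1* had 415, 300 and 138 CPM in WT and 109, 112 and 120 CPM in *Gpr174*-/Y muscle (-1.32, standard error 0.35, adjusted p = 0.0182). WT replicate 3 lay close to the *Gpr174*-/Y libraries in *Phka1*, and the call was lost without WT replicate 2 (0.0578) and without each *Gpr174*-/Y library in turn (0.0639, 0.0602 and 0.0587). *Phkb*, the subunit shared by muscle and liver, fell by 0.97 on the log2 scale (adjusted p = 0.00754). *Phkg2*, the catalytic subunit of liver and testis, had 24.3, 21.5 and 22.1 CPM in WT and 23.1, 22.5 and 23.0 CPM in *Gpr174*-/Y muscle (0.01, adjusted p = 0.871), and without WT replicate 2 the value was -0.02. With total counts *Phkg2* was at 0.29 and passed (adjusted p = 0.00559, edgeR), a scaling by which 50.7% of all genes were higher. The ratio of *Phkg1* to *Phkg2* on TPM went from 8.22, 6.49 and 3.10 in WT to 1.82, 1.88 and 1.81 in *Gpr174*-/Y muscle.

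The genes that build glycogen fell too. Glycogen synthase of muscle (*Gys1*) had 529, 476 and 401 CPM in WT and 262, 260 and 255 CPM in *Gpr174*-/Y muscle (log2 fold change -0.85, standard error 0.10, adjusted p = 0.00134, edgeR). *Ugp2*, which makes the UDP-glucose that synthase uses, had 610, 583 and 539 CPM in WT and 335, 321 and 309 CPM in *Gpr174*-/Y muscle (-0.84, adjusted p = 0.00073). *Gbe1*, the branching enzyme, was 2.08-fold lower (-1.06, adjusted p = 0.00105). Both members that encode subunits holding protein phosphatase 1 on glycogen also fell. *Ppp1r3c* had 400, 340 and 244 CPM in WT and 117, 114 and 104 CPM in *Gpr174*-/Y muscle, the largest fall in the shared class (-1.55, standard error 0.17, adjusted p = 0.00112). *Ppp1r3a*, the muscle form, fell from 186, 146 and 92.7 CPM to 60.3, 62.3 and 66.1 CPM (-1.17, adjusted p = 0.00582). In the genes of synthesis, in *Ppp1r3c* and in *Ppp1r3a* each *Gpr174*-/Y library was below each WT library.

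Across steps, 16 of the 17 ratios of a muscle or glycolytic form to its partner were lower in *Gpr174*-/Y muscle with no overlap between libraries, and the median difference of the log2 ratio was -1.57. The exception was *Ldha* to *Ldhb*. Each of the 16 had the smallest p that 3 libraries against 3 allow (2-sided exact permutation test, p = 0.1, adjusted p = 0.106 over 17 pairs), so no single ratio could pass 0.05. Several ratios share a gene, and all come from the same 6 libraries. Ratios of unrelated gene pairs were not computed. Set against the summed counts of fast fibre markers, 94.1% of 14349 genes were higher in *Gpr174*-/Y muscle without overlap. A division of this kind is therefore not particular to isozymes. After *Slc2a4* to *Slc2a1* (-2.41), the largest differences were *Pgam2* to *Pgam1* (-2.11), *Hk2* to *Hk3* (-2.04) and *Pygm* to *Pygl* (-2.02). The smallest of the 16 were *Slc16a3* to *Slc16a1* (-0.68), *Pfkfb1* to *Pfkfb4* (-0.76) and *Hk2* to *Hk1* (-0.84). In *Pfkfb1* to *Pfkfb4* both genes fell, and WT replicate 3, at 0.397, nearly met the highest *Gpr174*-/Y library, at 0.392.

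**Figure D4:**
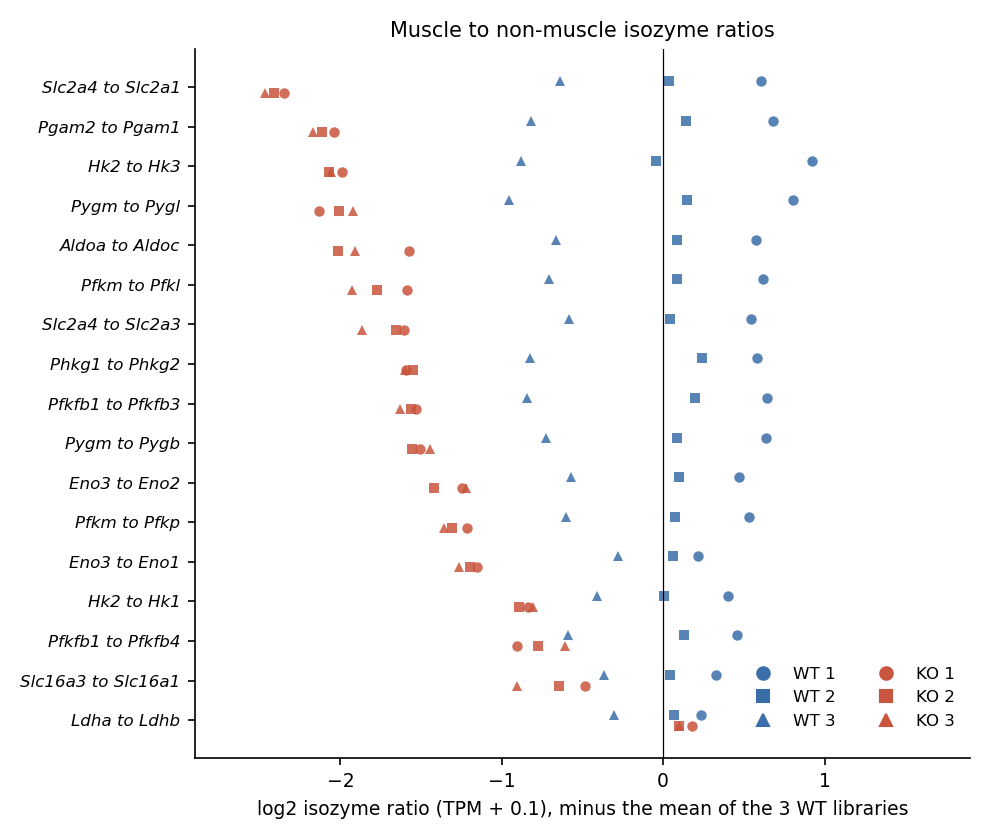
Log2 ratio of the muscle or glycolytic form to its partner (TPM + 0.1) in each library, less the mean of the 3 WT libraries, for 17 pairs. Blue points are WT and red points *Gpr174*-/Y (labelled KO), with a circle, square and triangle for replicates 1, 2 and 3. In 16 rows all red points lie left of all blue points, and *Ldha* to *Ldhb* is the row where they overlap.

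The members together gave 6.50%, 5.76% and 4.62% of all TPM in WT and 3.692%, 3.698% and 3.719% in *Gpr174*-/Y muscle. The non-muscle class gave 0.0649%, 0.0674% and 0.0729% in WT and 0.113%, 0.117% and 0.122% in *Gpr174*-/Y muscle. In points of TPM the rise of that class was small beside the fall of the others, but relative to its own level it was not. The log2 ratio of the mean TPM shares was 0.78 for the non-muscle class, -0.67 for the muscle class and -0.62 for the shared class. In whole muscle, fewer cells of a type and less RNA per cell cannot be told apart, and markers of several cell types moved with the members. All 23 mature fast fibre markers were lower, with a median log2 fold change of -1.41, and 4 of 8 slow fibre markers were lower and 1 higher. The slow fibre sum overlapped between groups, at 1165 to 1558 CPM in WT and 1270 to 1383 CPM in *Gpr174*-/Y muscle. Of 11 regenerating fibre markers 8 were higher. The regenerating fibre sum overlapped as well, at 7008 to 9276 CPM in WT and 8646 to 10662 CPM in *Gpr174*-/Y muscle. Macrophage markers were higher for 10 of 12, with summed levels between 1616 and 2529 CPM in WT and between 3733 and 3819 CPM in *Gpr174*-/Y muscle. Of 7 fibroblast markers 3 were lower and 3 higher, and their sum was between 15151 and 21587 CPM in WT and between 27379 and 30819 CPM in *Gpr174*-/Y muscle. Endothelial markers were lower for 9 of 10 and higher for 1. Of 5 adipocyte markers 1 was lower and 2 higher, 1 of 5 tested Schwann cell and nerve markers was lower, the 2 neutrophil markers tested of 10 went 1 in each direction, and 0 of 5 erythroid markers passed the test, although all 5 had positive log2 fold changes. No listed marker was at 0 in all libraries. The part of the cell types other than fibres in the changes of the 41 members was not tested.

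Set against the fast fibre markers, which fell by more than most genes, 9 of the 12 muscle isozymes had a positive difference, as did 98.01% of 14349 tested genes with a count in every library. Per 1000 counts of the 23 markers, *Hk2* had 0.616, 0.596 and 0.613 counts in WT and 0.895, 0.930 and 1.06 counts in *Gpr174*-/Y muscle. *Gys1* had 2.203, 2.27 and 2.38 in WT and 3.11, 3.22 and 3.37 in *Gpr174*-/Y muscle, and *Eno3* had 20.8, 20.3 and 19.41 in WT and 27.5, 27.8 and 28.2 in *Gpr174*-/Y muscle. *Pfkm* and *Pgam2* were likewise higher in each *Gpr174*-/Y library, by 0.36 and 0.21 on the log2 scale. Of the 9 positive differences 5 were without overlap, where 94.1% of all genes were higher without overlap and 0.711% lower, and the median over the class was 0.22 against 1.35 over all genes. The other 3 members had a negative difference with overlap, *Slc2a4* (-0.06), *Pfkfb1* (-0.25) and *Phkg1* (-0.30). The lowest p was 0.1 (2-sided exact permutation test, adjusted p = 0.24 over 12 genes), the smallest that 3 libraries against 3 allow. The direction depended on the reference, since against the slow fibre list all 9 of the positive differences became negative, between -1.19 for *Pygm* and -0.68 for *Hk2*.

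**Figure D5:**
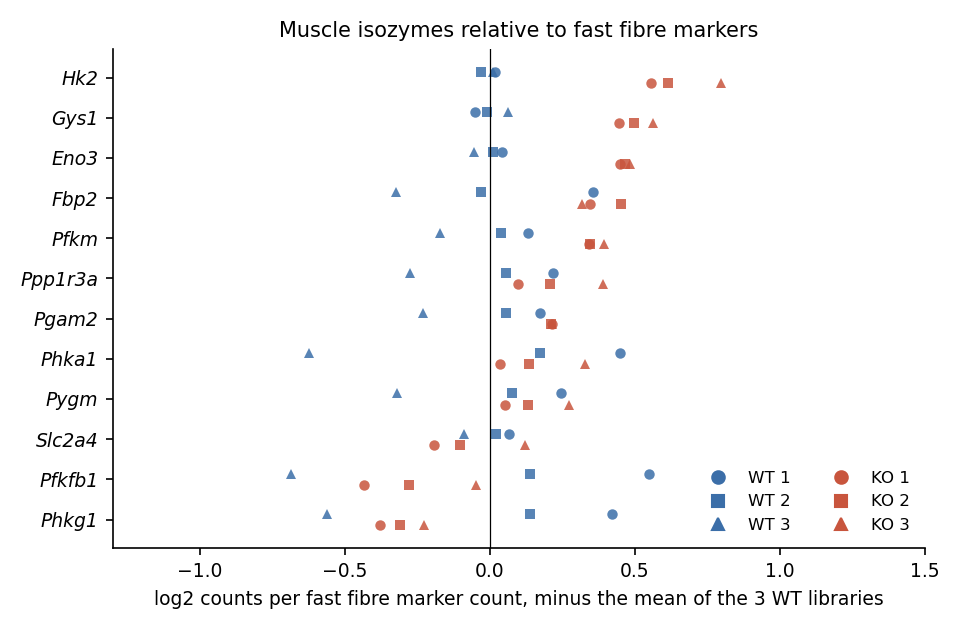
Log2 of the counts of each muscle class member per count of the 23 fast fibre markers, less the mean of the 3 WT libraries, for WT (blue) and *Gpr174*-/Y (red, labelled KO) replicates 1 (circle), 2 (square) and 3 (triangle). *Hk2*, *Gys1* and *Eno3* lie to the right in all *Gpr174*-/Y libraries, by 0.66, 0.50 and 0.47, and *Slc2a4*, *Pfkfb1* and *Phkg1* overlap with WT.

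Genes around the same pathways were counted from 6 lists of 85 genes, of which 78 could be tested. At an adjusted p of 0.05, 39 were lower and 19 higher (edgeR), against 27.6% and 27.0% of all genes. By total-count scaling 30 were lower and 30 higher, against 13.96% and 50.7% of all genes. Lactate and pyruvate genes had 12 of 17 lower and 3 higher, the energy and oxygen regulators 9 of 13 lower and 3 higher, other glycogen genes 6 of 15 lower and 3 higher, glucose handling 6 of 15 lower and 4 higher, and other glycolysis and gluconeogenesis genes 5 of 10 lower and 2 higher. The pentose phosphate genes, which draw glucose 6-phosphate off to NADPH and ribose, had 1 of 8 lower and 4 higher. Of the 18 past both thresholds, the largest changes were falls of *Ldhd*, a D-lactate dehydrogenase (-1.93), *Gpd1* and *Gpd2* of the glycerol phosphate shuttle (-1.43 and -1.35), *Slc37a4*, a glucose 6-phosphate carrier (-1.40), *Pdk4*, a kinase that holds pyruvate dehydrogenase off (-1.37), *Mpc2* of the mitochondrial pyruvate carrier (-1.34), *Mlxipl*, which encodes the glucose-sensing factor ChREBP (-1.28), and *Bpgm* (-1.16). *Ppp1r3b*, the liver relative of *Ppp1r3a*, rose from 2.24, 2.98 and 3.43 CPM to 6.74, 7.16 and 6.28 CPM (log2 fold change 1.21, adjusted p = 0.00145, edgeR), and *Slc2a6*, a transporter of leukocytes, rose by 1.18 on the log2 scale (adjusted p = 0.021). *Slc2a6* missed the threshold without WT replicate 2 (0.08), *Gpr174*-/Y replicate 2 (0.0619) or *Gpr174*-/Y replicate 3 (0.0694), and *Gpd1* without WT replicate 2 (0.0536) or each *Gpr174*-/Y library in turn (0.0594, 0.055 and 0.0588).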

How the data were processed

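Total RNA of 6 ischemic muscles was sequenced, on the BGISEQ-500 by the methods, while the labels name an Illumina kit. The authors deposited expected counts, FPKM and TPM for 58843 RefSeq transcripts, each in its own column per library, and the submitters' processing notes name HISAT2 2.0.4, Bowtie2 2.2.5, RSEM 1.2.12 and GRCm39 without their roles. The strand setting is not given in the sources used here. Expected counts, which are not whole numbers and not normalized, were summed per gene and rounded, which gave 18089 genes. TPM and FPKM were scaled for length and library by the authors. The mean columns were left out.

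Genes were compared with edgeR 4.0.16 (TMM scaling, its low-count filter, the quasi-likelihood F-test in robust mode, R 4.3.3) over 14395 genes with Benjamini-Hochberg adjustment, with thresholds taken from the study, 0.05 for the adjusted p and 1 for the size of the log2 fold change. The code of the test was run on simulated counts with a single dispersion, few changed genes and no gradient among WT libraries. These data differ from that setting, so the run does not bear on the scaling or the calls given here. The common dispersion was 0.00967. Ratios were taken on log2(TPM + 0.1) and compared by exact permutation tests in Python 3.11.15. Levels between genes were compared on TPM. The 41 members, the marker and pathway lists and the tests were chosen with earlier results of these data known. Named were all members, *Gpr174*, the pathway genes past both thresholds with at least 1 CPM (at most 10), and transcripts of *Pkm* or with a share that differed by at least 10 percentage points without overlap. Alternatives were other scalings and filters, DESeq2 1.42.0, limma 3.58.1, a replicate block and each library left out. Promoter sequences are from RefSeq and matched 39 of 41 members by symbol.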

Additional observations from a re-analysis of the deposited data

How the results depend on the processing

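The 12 muscle members were lower in each alternative with every library, other than *Phka1*, which missed an adjusted p of 0.05 with limma on FPKM and with the replicate block. Members past both thresholds numbered 5 lower and 6 higher with total counts, 4 and 3 with log2(FPKM + 1), and 4 and 5 with log2(FPKM + 0.1). The higher count was 2 with upper-quartile scaling, with no filter and with the replicate block. Pathway genes higher numbered 30, 29 and 29 with total counts and the FPKM pair. The class medians (muscle, non-muscle, shared) were -0.82, 0.53 and -0.64 with log2(FPKM + 1), -0.85, 0.58 and -0.65 with log2(FPKM + 0.1), and 0.61 and -0.69 for the non-muscle and shared classes with total counts. *Slc16a1* turned to 0.079, 0.071 and 0.078 with total counts, log2(FPKM + 1) and log2(FPKM + 0.1). In the same settings *Slc2a3*, *Hk1*, *Pfkfb3* and *Phkg2* passed as higher. Their highest adjusted p was 0.0497 (*Pfkfb3*, limma on log2(FPKM + 0.1)). Of all genes tested, 64.7%, 69.0% and 68.4% passed in these settings.

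With 1 library left out, 4 to 21 members were lower and 1 to 5 higher past both thresholds, 6 to 11 members and 6 to 11 non-muscle members were higher at the adjusted p, and the shared median ran from -1.12 to -0.79. Of all genes tested, 37.5% to 62.8% passed the adjusted p in these fits, and the share past both thresholds was not counted. *Phkg2* ran from -0.017 to 0.074, *Pfkfb3* from -0.061 to 0.122, and *Ldha* to *Ldhb* from -0.027 to 0.243. Relative to fast fibre markers the ranges were -0.147 to 0.0091 for *Slc2a4*, -0.596 to 0.021 for *Pfkfb1*, -0.0097 to 0.274 for *Pygm* and -0.145 to 0.391 for *Phka1*.

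Against the slow fibre list the relative levels were -0.68 for *Hk2*, -0.98 for *Pfkm*, -1.12 for *Pgam2*, -0.87 for *Eno3*, -0.96 for *Fbp2*, -1.19 for *Pygm*, -0.84 for *Gys1*, -1.17 for *Phka1* and -1.10 for *Ppp1r3a*.

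With the replicate block, 25 members were lower and 9 higher, with 47.3% of all genes called, and *Phka1* and *Eno2* missed the threshold (edgeR, adjusted p = 0.0513 and 0.074). Libraries with the same number did not deviate together (correlations 0.0163, -0.0281 and -0.00839), so the numbers were not taken as pairs. Members with few counts, such as *Aldoc* with 9 to 32, are limited by depth.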
